A study of Mus musculus with 9 samples.

Results

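The cells described here are the Shh-expressing cells of the polarizing region, the posterior limb bud mesenchyme, in mouse forelimb buds at E10.75. They were selected from single-cell transcriptomes of 9 libraries. A barcode was kept when it had more than 2500 detected genes, fewer than 200000 UMIs (unique molecular identifiers, each standing for 1 captured transcript) and less than 10% of its UMIs from mitochondrial genes. It counted as mesenchymal with at least 3 UMIs of Prrx1, a transcription factor of limb mesenchyme, and no UMI of Lbx1 (muscle progenitors), Epcam (ectoderm), Cdh5 (endothelium) or Tyrobp (macrophages). Mesenchymal cells with at least 2 UMIs of Shh were called Shh cells. This gave 801 Shh cells among 34671 mesenchymal cells, out of 52432 barcodes that passed the first 3 limits.

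Each library was made from the pair of forelimbs of an embryo with 37 to 39 somites, on a Swiss Albino background, and there were 3 libraries for each of 3 genotypes. Wild-type embryos (Wt) were set beside homozygotes of the EC1CRM8Δ/Δ (E1C8Δ/Δ) and EC1CRM5Δ/Δ (E1C5Δ/Δ) genotypes. Both mutants lack EC1, a stretch with several enhancers in the regulatory landscape of Grem1, and in cis either CRM8 or CRM5 as well, so what they share is the EC1 deletion and no group carries EC1 deleted alone. The deletions are germline and present in every cell, and changes that arise in Shh cells and in the cells around them cannot be told apart. Buds were dissociated with collagenase D and captured with the 10x Genomics 3′ v3.1 chemistry.

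Shh is the secreted signal of the polarizing region. It binds Ptch1 on receiving cells, which releases Smo and activates Gli transcription factors, and the transcription of Ptch1 and Gli1 then rises as a readout of the signal. In the limb bud the signal patterns the anterior-posterior axis, sustains outgrowth with FGFs from the overlying ectodermal ridge, and is linked to that ridge through Grem1, a secreted antagonist of BMPs. Grem1 is normally expressed in mesenchyme next to the polarizing region and little within it.

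The libraries held 2571 to 28480 barcodes and 26620760 to 500559729 UMIs, and the barcodes that passed the limits had median depths of 18179 to 49873 UMIs. Xist, transcribed from the inactive X, and Y-linked transcripts placed the 3 Wt embryos, E1C8Δ/Δ replicate 3 and E1C5Δ/Δ replicate 2 as male, and the other 4 mutants as female, so genotype and sex are partly confounded (Xist 675 to 993 CPM in female libraries and at most 23.4 CPM in male ones, CPM being a gene's UMIs scaled to the total UMIs of the cells summed). Genes on X and Y were left out of all tests, and for most genotype calls named below the values with sex as a covariate or from male libraries alone are given. The male fit holds 3 Wt libraries and 1 library of each mutant, so that the lone library is assumed to vary like the other groups, and the same is assumed where a fitted E1C8Δ/Δ library is left out. Grem1, whose enhancers were deleted, was at 41.5, 27.8 and 27.3 CPM in the Shh-negative mesenchyme of Wt replicates 1 to 3, at 9.76, 11.5 and 13.3 CPM in E1C8Δ/Δ, and at 17.7, 16.2 and 25.7 CPM in E1C5Δ/Δ. All 6 mutant libraries thus lay below the lowest Wt library. In sums over all mesenchymal cells Grem1 passed the edgeR test described below for both mutants (log2 difference -1.03, adjusted p = 0.0138) and E1C8Δ/Δ (-1.44, adjusted p = 0.00418), not for E1C5Δ/Δ (-0.63, adjusted p = 0.17), and was lower in E1C8Δ/Δ than in E1C5Δ/Δ (-0.82, adjusted p = 0.0284). For the protein, stained in whole buds, the study describes more GREM1 left in E1C8Δ/Δ than in E1C5Δ/Δ, the reverse of this RNA order. No barcode was shared between libraries among Shh cells. Among all mesenchymal cells 0 to 18 barcodes were shared by any pair of libraries, at most 0.492% of the smaller library.

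The label was checked against Hand2, Ptch1 and Prdm1, which the selection did not use. Hand2, a transcription factor that acts upstream of Shh in the posterior bud, was detected in 99.6% of Shh cells and 70.4% of the 33384 mesenchymal cells with no Shh UMI (Shh-negative mesenchyme). Ptch1 was detected in 95.1% and 57.0%, and Prdm1, a transcriptional repressor, in 55.2% and 9.06%. All 3 were found in 436 Shh cells (54.4%), 2 of the 3 in 331, 1 in 32 and none in 2. Shh-negative mesenchyme held all 3 in 6.93% of cells and none in 18.03%. Depth moves with these shares, since Shh cells had a median of 42635 UMIs and Shh-negative mesenchyme 28803.5. After each cell was thinned to 10000 UMIs, which left 794 Shh cells and 31808 Shh-negative cells deep enough, Hand2 was detected in 94.2% and 51.5%, Ptch1 in 70.9% and 31.5%, and Prdm1 in 26.8% and 3.62%. For the background, at full depth Hand2, Ptch1 and Prdm1 were detected in 15.4%, 41.1% and 1.03% of red blood cells, and in 43.9%, 64.2% and 13.5% of muscle progenitors, at the median depths given below. At full depth the Ptch1 and Prdm1 shares of Shh-negative mesenchyme did not exceed those of the deeper muscle progenitors, whereas all 3 shares of Shh cells did. Thinned to 10000 UMIs, muscle progenitors had Hand2 in 19.3%, Ptch1 in 24.4% and Prdm1 in 2.86%. At that depth all 3 shares of Shh-negative mesenchyme lay above those of muscle progenitors, and those of Shh cells lay higher still.

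Just below the threshold lay 486 mesenchymal cells with 1 Shh UMI, and just inside it 1 to 44 cells per library with exactly 2. The cells with 1 UMI had Hand2 in 87.7%, Ptch1 in 76.7% and Prdm1 in 26.5%, which lies between the Shh-negative mesenchyme and the Shh cells for each marker. Free RNA can place a Shh UMI in a cell that does not transcribe the gene. A Shh UMI was present in 0.988% of 2227 red blood cells (median 33349 UMIs) and in 2.8% of 3317 muscle progenitors (median 48158 UMIs), neither of which are known Shh sources in the bud. At the threshold of 2 UMIs these were 2 red blood cells (0.0898%) and 39 muscle progenitors (1.18%), the latter with up to 14 Shh UMIs in a cell, and the part of doublets was not tested. Of the 6318 Shh UMIs in mesenchymal cells, 5832 (92.3%) were in the 801 Shh cells.

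Wt replicates 1 to 3 held 141 Shh cells of 4106 mesenchymal cells (3.43%, 95% Wilson interval 2.92 to 4.04%), 149 of 5676 (2.63%, 2.24 to 3.07%) and 17 of 591 (2.88%, 1.80 to 4.56%). E1C8Δ/Δ replicates held 8 of 411 (1.95%, 0.99 to 3.79%), 97 of 6561 (1.48%, 1.21 to 1.80%) and 89 of 6063 (1.47%, 1.19 to 1.80%). E1C5Δ/Δ replicates held 53 of 2823 (1.88%, 1.44 to 2.45%), 37 of 1625 (2.28%, 1.66 to 3.12%) and 210 of 6815 (3.08%, 2.70 to 3.52%). All E1C8Δ/Δ shares were below all Wt shares, while E1C5Δ/Δ replicate 3 lay within the Wt range. The intervals cover counting error only.

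The mean share was 2.98% ± 0.414 (SD, n = 3) in Wt, 1.63% ± 0.273 (n = 3) in E1C8Δ/Δ and 2.41% ± 0.613 (n = 3) in E1C5Δ/Δ. The mean of both mutants minus that of Wt was -0.957 percentage points, which did not pass an exact two-sided permutation test over the libraries (p = 0.0595, 84 splits, smallest possible p = 0.0119). For E1C8Δ/Δ the difference was -1.35 points (exact permutation p = 0.1, the smallest that 3 against 3 libraries allow), for E1C5Δ/Δ it was -0.567 points (exact permutation p = 0.3), and E1C8Δ/Δ minus E1C5Δ/Δ was -0.781 points (exact permutation p = 0.2). The depth of the cells differs between libraries and sets how many reach 2 Shh UMIs. With every cell thinned to 10000 UMIs and at least 2 Shh UMIs left, the difference was -0.735 points (exact permutation p = 0.0238). Without thinning it was -1.19 points at a threshold of 3 UMIs (exact permutation p = 0.0357) and -1.33 points at a threshold of 1 UMI (exact permutation p = 0.0714). Without E1C5Δ/Δ replicate 3 the difference was -1.17 points (exact permutation p = 0.0179). It did not pass with doublets removed (-0.817 points, exact permutation p = 0.0714), with up to 1 UMI of the other lineages' markers allowed (-0.824 points, exact permutation p = 0.0833), or without Wt replicate 1 (-0.729 points, exact permutation p = 0.143), Wt replicate 3 (-1.01 points, exact permutation p = 0.107) or E1C8Δ/Δ replicates 2 or 3 (-0.848 and -0.846 points, exact permutation p = 0.107 for each). The direction was the same in each of these.

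**Figure D1:**
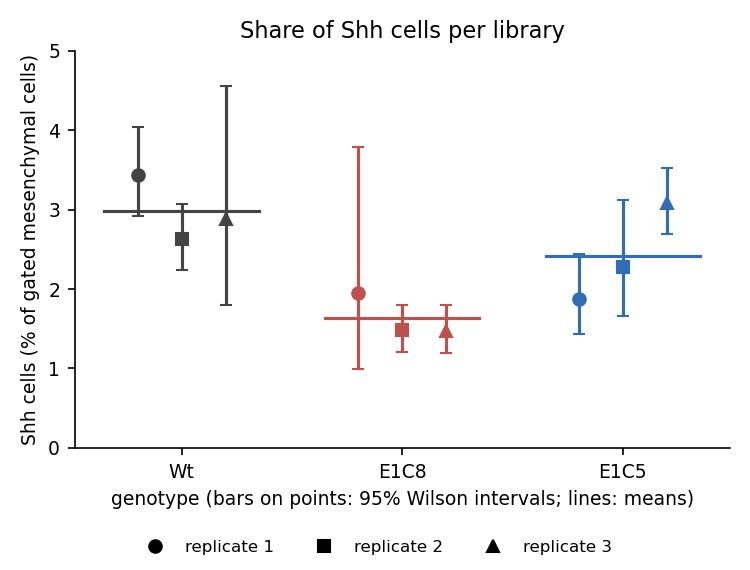
Percent of mesenchymal cells with at least 2 Shh UMIs (vertical axis) in each of the 9 libraries, by genotype, with symbols for replicates, bars for 95% Wilson intervals and lines for group means. The 3 E1C8Δ/Δ shares, 1.47 to 1.95%, sit below the 3 Wt shares, 2.63 to 3.43%, and E1C5Δ/Δ spans 1.88 to 3.08%.

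Shh itself chose the cells, so its level among them is given without a test. The Shh gene (mm10, chromosome 5, 28456815 to 28467256, minus strand) had a median of 5 UMIs per Shh cell and a maximum of 55. A total of 270 cells held 2 or 3 UMIs, 278 held 4 to 7 and 253 held 8 or more. Cells with 8 or more made up 42.6%, 38.9% and 70.6% of Shh cells in Wt, 50%, 12.4% and 23.6% in E1C8Δ/Δ and 28.3%, 18.9% and 30.5% in E1C5Δ/Δ. Relative to depth, Shh was at 172, 131 and 184 CPM in the Shh cells of Wt, 190, 142 and 173 CPM in E1C8Δ/Δ and 97.0, 84.7 and 119 CPM in E1C5Δ/Δ. The E1C5Δ/Δ libraries lay below the others and the E1C8Δ/Δ libraries overlapped Wt, but these levels depend on depth. The threshold of 2 UMIs is a higher CPM in a shallower cell, and E1C8Δ/Δ replicates 2 and 3 were the shallowest. Whether Shh per cell differs between the genotypes cannot be read from these values. Median depth of the Shh cells was 40188, 47301 and 77255 UMIs in Wt, 45643.5, 24466 and 28288 UMIs in E1C8Δ/Δ and 46960, 51423 and 47219 UMIs in E1C5Δ/Δ.

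Summed over all mesenchymal cells of a library, Shh did not pass the test of both mutants against Wt (log2 difference -0.95, SE 0.26, adjusted p = 0.108; edgeR's quasi-likelihood test with Benjamini-Hochberg adjustment over all genes, as for every adjusted p here unless another tool is named). Of 16253 genes tested 291 (1.79%) passed, 90 higher and 201 lower. With sex as a covariate 1 was higher and 5 lower, with the replicate number as a block 22 and 69. Without Wt replicate 2 the counts were 25 and 64, without E1C5Δ/Δ replicate 3 291 and 458, and by DESeq2 313 and 520. The difference was -0.92 for E1C8Δ/Δ (adjusted p = 0.111) and -0.98 for E1C5Δ/Δ (adjusted p = 0.2). DESeq2 put the Shh difference of the mutants past the threshold (adjusted p = 0.00406), as did leaving out E1C5Δ/Δ replicate 3 (log2 difference -1.15, adjusted p = 0.0252). In such a sum, fewer Shh cells and less Shh RNA per cell cannot be told apart.

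What else Shh cells expressed was tested within libraries, by summing the counts of a library's Shh cells and of its other mesenchymal cells and comparing the sums with the library as a block. E1C8Δ/Δ replicate 1, with 8 Shh cells, was left out of these tests and of all genotype tests below, which rest on 8 libraries. Against Shh-negative mesenchyme, 3748 of 12602 genes passed an adjusted p of 0.05 (29.7%), 1705 higher (13.5%) and 2043 lower (16.2%) in Shh cells. Against the 18235 cells with at least 2 Hand2 UMIs and no Shh UMI (Hand2 mesenchyme), 3469 of 12348 passed (28.1%, 12.9% higher and 15.2% lower). The 1178 cells with at least 2 Hoxd13 UMIs, at least 1 Hoxa13 UMI and no Shh UMI were called distal mesenchyme. Against these, 881 of 10227 passed (8.61%). With so large a background, the size of a difference and its spread over libraries say more than its passing the test. Thinning all cells to 10000 UMIs left 2104 of 10059, 1852 of 9679 and 349 of 7903 genes tested. Matching the Shh-negative cells to Shh cells on UMIs left 2075 of 9783. Both steps also discard counts, and the part of that loss in the lower numbers was not tested.

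Cck, which encodes the peptide hormone cholecystokinin (chromosome 9, 121489824 to 121495694), differed most in all 3 comparisons. It was at 43.4, 29.6 and 106 CPM in the Shh cells of Wt, 58.2, 29.2 and 43.5 CPM in E1C8Δ/Δ and 26.0, 24.4 and 21.9 CPM in E1C5Δ/Δ, and between 0 and 0.277 CPM in Shh-negative mesenchyme. Every library thus showed it, with no overlap between the classes. The log2 difference for Cck was 7.81 (SE 0.15, adjusted p = 6.75e-23) against Shh-negative mesenchyme, 7.46 (SE 0.23) against Hand2 mesenchyme and 5.49 (SE 0.30) against distal mesenchyme. Among the other genes most enriched with Shh by this measure were Hoxa13 (3.20, SE 0.20), Tfap2b (2.98, SE 0.26), Prdm1 (2.65, SE 0.10), the kinase gene Nim1k (2.62, SE 0.20), Hoxd12 (2.27, SE 0.11), Hand2os1 (2.23, SE 0.13), Tfap2c (2.21, SE 0.07) and Bmp4 (2.19, SE 0.08). Apart from Cck, Nim1k, Bmp4 and the noncoding Hand2os1, these encode transcription factors. Bmp4 was 244 to 343 CPM in the Shh cells of the 9 libraries and 55.1 to 78.3 CPM in Shh-negative mesenchyme.

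Transcripts that overlap or neighbor Shh were also higher in Shh cells. 9530036O11Rik, a transcript over the Shh gene that was picked out after its values were seen, differed by 7.27 (SE 0.31) on the log2 scale. It lies on the plus strand, opposite to Shh. Counting was done with the default parameters of Cell Ranger, which for this chemistry count reads on the sense strand, and this was not checked on the reads for 9530036O11Rik or for Hand2os1, which lies opposite to Hand2. Of 5 tested genes near Shh on chromosome 5, 4 were higher in Shh cells and none lower (median log2 difference 0.23, against -0.01 for all genes tested). Lmbr1, an intron of which holds the limb enhancer of Shh (ZRS), differed by 0.93 (SE 0.11, adjusted p = 2.56e-07), Rnf32 by 0.88 (SE 0.18, adjusted p = 0.00037), and Ube3c and Dnajb6 by 0.23 and 0.14. Against distal mesenchyme Lmbr1 and Rnf32 remained higher, by 0.75 (SE 0.12) and 0.82 (SE 0.21).

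Among 22 transcription factors known to act upstream of Shh in the limb, 12 were higher in Shh cells than in Shh-negative mesenchyme and 7 lower (median 0.41). Prdm1 (chromosome 10, 44437177 to 44528501) was at 39.9, 19.0 and 16.0 CPM in Wt, 60.5, 18.6 and 19.6 CPM in E1C8Δ/Δ and 29.0, 29.3 and 42.7 CPM in E1C5Δ/Δ, against 3.26 to 6.80 CPM outside Shh cells. Hand2 was 276 to 448 CPM in Shh cells and 104 to 156 CPM in Shh-negative mesenchyme, a log2 difference of 1.55 (SE 0.05, adjusted p = 7.07e-13). The repressors Tbx2 (1.71, SE 0.14) and Tbx3 (1.25, SE 0.19) and the ETS factors Etv4 (1.06, SE 0.07) and Etv5 (0.79, SE 0.06), which respond to FGFs and restrict where Shh is expressed, were higher too. Within the HoxD cluster the sign changed along the genes, with Hoxd13 at 2.07 (SE 0.08), Hoxd12 at 2.27 (SE 0.11), Hoxd11 at 0.64 (SE 0.08), Hoxd10 at 0.11 (SE 0.04), Hoxd9 at -0.58 (SE 0.05) and Hoxd4 at -0.30 (SE 0.06), all past the test. Gli3, whose repressor form restrains Shh (-0.80, SE 0.06), Zbtb16 (-1.91, SE 0.12) and Ets1, an ETS factor that activates Shh through the ZRS (-0.33, SE 0.06), were among those lower.

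The components that receive Hedgehog signals split. Ptch1 was 225, 127 and 83.5 CPM in Wt, 121, 108 and 117 CPM in E1C8Δ/Δ and 172, 146 and 186 CPM in E1C5Δ/Δ Shh cells, above the 35.3 to 65.1 CPM of Shh-negative mesenchyme in every library (log2 difference 1.62, SE 0.11, adjusted p = 1.89e-05). Gli1, also induced by the signal, was higher too (0.74, SE 0.09). The co-receptors that help cells bind SHH were all lower. Gas1 (chromosome 13, 60174405 to 60177365) was at 57.9, 86.1 and 54.8 CPM in Wt, 108, 164 and 86.0 CPM in E1C8Δ/Δ and 27.0, 45.2 and 96.6 CPM in E1C5Δ/Δ Shh cells, against 214 to 338 CPM in Shh-negative mesenchyme (log2 difference -1.87, SE 0.20, adjusted p = 0.000325). Cdon differed by -1.61 (SE 0.17) and Boc by -1.48 (SE 0.14).

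Hhip, a decoy receptor that is itself a target of the signal, was also lower, at -1.0 (SE 0.22, adjusted p = 0.000799). Over the list, 3 of 7 tested receptors were higher, Ptch1 and Smo among them, and 4 lower (median -1.0). Smo, the signal transducer, was only 0.10 higher (SE 0.04, adjusted p = 0.0359), and that did not pass against Hand2 mesenchyme (0.09, adjusted p = 0.096). Of 13 transduction genes 3 were higher and 3 lower (median 0.12), and Gli2 (-0.66, SE 0.09) and Gli3 (-0.80, SE 0.06) were on the lower side. For the release of the ligand, Hhat, which attaches palmitate to SHH, was higher (0.58, SE 0.09), whereas Disp1, which releases SHH from the membrane, and Scube3, a carrier, were lower (-0.67, SE 0.09 and -0.55, SE 0.12). Against distal mesenchyme Scube3 was higher (0.42, SE 0.11, adjusted p = 0.0219).

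Against Shh-negative mesenchyme, most BMP ligands were higher in Shh cells, and no BMP antagonist was. Of 6 tested ligands 4 were higher, namely Bmp4 (2.19, adjusted p = 1.86e-07), Bmp2 (1.76, SE 0.12), Bmp5 (1.29, SE 0.14) and Bmp7 (0.75, SE 0.06), and Gdf6 was lower at -2.12 (SE 0.40). Of 8 tested antagonists none was higher and 4 were lower, with a median of -0.68. Grem1 (chromosome 2, 113746164 to 113758646) was at 7.70, 7.07 and 0.668 CPM in the Shh cells of Wt, 0, 5.31 and 2.50 CPM in E1C8Δ/Δ and 5.66, 3.10 and 9.82 CPM in E1C5Δ/Δ, in each library below its own Shh-negative mesenchyme (log2 difference -1.95, SE 0.19, adjusted p = 6.27e-05). A Grem1 UMI was found in 17.4% of Shh cells and 25.5% of Shh-negative mesenchyme despite the greater depth of the former. Smoc1 (-1.81, SE 0.13), Smoc2 (-1.65, SE 0.29) and Sostdc1 (-1.18, SE 0.15) were the other antagonists that were lower. Of 10 BMP target genes 6 were higher and none lower (median 0.50), among them Bambi (1.17, SE 0.05), Msx1 (1.06, SE 0.06) and Id1 (0.47, SE 0.09), while Id2 stood at -0.04 (SE 0.10, adjusted p = 0.834).

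**Figure D2:**
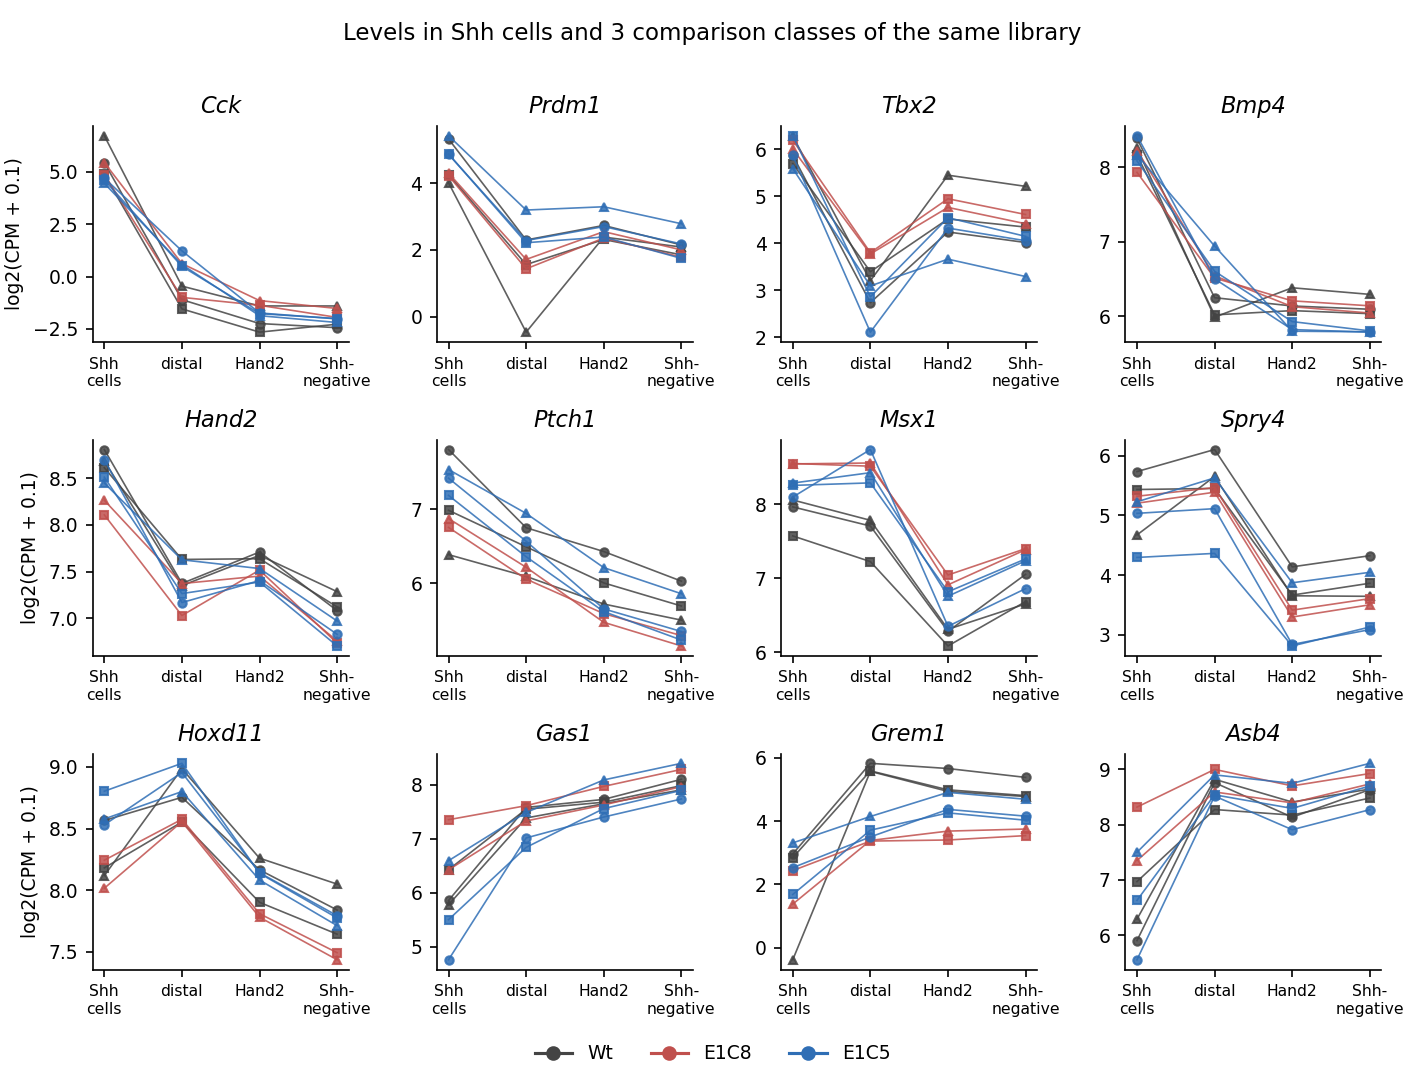
Level, as log2(CPM + 0.1), of 12 genes in Shh cells and in distal, Hand2 and Shh-negative mesenchyme, with 1 line for each of the 8 fitted libraries, colored by genotype (Wt, E1C8, E1C5). Cck, at 21.9 to 106 CPM in Shh cells and at most 0.277 CPM in Shh-negative mesenchyme, drops between them in every library, whereas Gas1, Grem1 and Asb4 are lowest in Shh cells in each.

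Of 10 genes that respond to the ridge FGFs 8 were higher and 1 lower (median 0.49), the higher ones including the feedback inhibitors Spry4 (1.45, SE 0.08) and Dusp6 (0.51, SE 0.06). Positional genes sorted by axis. Of 8 posterior genes 7 were higher (median 1.63), all but Osr1 (-1.50, SE 0.23), and of 10 anterior genes none was higher and 8 were lower (median -1.52), including Alx4 (-1.78, SE 0.15), Pax1 (-2.23, SE 0.29) and Irx5 (-1.86, SE 0.19). All 8 proximal genes were lower (median -1.62), such as Meis1 (-1.70, SE 0.18) and Pkdcc (-1.69, SE 0.19), and 7 of 9 distal genes were higher (median 0.82), such as Lmo2 (2.11, SE 0.13) and Lhx2 (0.82, SE 0.10). These lists overlap, and Hoxd13 stands in several.

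Other pathways were mixed. In the WNT list 9 of 19 genes were higher and 7 lower, with the inhibitor Dkk1 at 2.06 (SE 0.31), the nuclear effector Lef1 at 1.07 (SE 0.04) and the potentiator Rspo3 at -1.11 (SE 0.11). In the Notch list the target gene Hey1 was higher (1.70, SE 0.09), and the ligand Jag1 did not pass (0.61, SE 0.29, adjusted p = 0.162). This Jag1 value averages over genotypes, between which it differed, as given below. Among chondrogenic genes Sox9 (-1.50, SE 0.14) and Col2a1 (-1.53, SE 0.08) were lower and the link protein gene Hapln1 was higher (1.21, SE 0.12). Of 37 S-phase genes 2 were higher and 4 lower, and of 52 G2/M genes 11 were higher and 3 lower, beside the 13.5% higher and 16.2% lower of all genes tested. Ccnd1 (0.33, SE 0.04) and Mycn (0.58, SE 0.06) were higher and Ccnd2 lower (-0.28, SE 0.04).

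Asb4, a ubiquitin-ligase adaptor, was among the genes with the largest negative differences (-1.81, SE 0.26). Hbb-bt, a globin of red cells, was also lower in Shh cells (-1.90, SE 0.42). Globin and other red cell transcripts summed to 181 to 4306 CPM in the Shh cells of 8 libraries and 20104 CPM in Wt replicate 3. Whether they came from free RNA or from doublets with red cells was not tested. Markers of other lineages summed to at most 11.2 CPM for ectoderm, 3.21 CPM for endothelium, 4.48 CPM for macrophages, 2.85 CPM for muscle progenitors and 6.78 CPM for neural crest in any library's Shh cells. Megakaryocyte markers reached 89.4 CPM in E1C5Δ/Δ replicate 3 and at most 9.63 CPM elsewhere. Of 14 immediate-early and heat-shock genes that respond to dissociation, 9 were lower in Shh cells and 1 higher (median -0.45), such as Egr1 (-1.20, SE 0.16) and Fos (-0.75, SE 0.10). Their part in the other differences was not tested. When Shh-negative cells were matched to the Shh cells on UMIs, Cck (7.62), Bmp4 (2.11), Prdm1 (2.86), Ptch1 (1.63), Gas1 (-1.87) and Grem1 (-2.11) all still passed.

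Distal mesenchyme without Shh was chosen by its Hoxd13 and Hoxa13 UMIs, genes that were also high in Shh cells. It had a similar depth (median 43641.5 UMIs), and asking for these UMIs itself favors deeper cells. Here 445 genes were higher in Shh cells (4.35%) and 436 lower (4.26%), and many of the contrasts above were no longer found. Proximal and several anterior genes did not differ detectably, such as Meis1 (-0.06, SE 0.23), Pkdcc (0.29, SE 0.21) and Alx4 (0.05, SE 0.14), nor did Msx1 (0.01, SE 0.11), Gli1 (-0.09, SE 0.08, adjusted p = 0.615), Cdon (0.00, SE 0.18) or Etv4 (0.04, SE 0.05). No dissociation gene of 12 tested passed.

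Still higher in Shh cells than in distal mesenchyme were Prdm1 (2.67, SE 0.11), Tbx2 (2.67, SE 0.15), Tbx3 (1.88, SE 0.15), Bmp4 (1.77, SE 0.14), Hand2 (1.15, SE 0.09) and Ptch1 (0.70, SE 0.06). Msx2 (1.05, SE 0.06), Scube1 (0.51, SE 0.04) and Crabp1, a retinoic acid binding protein (0.33, SE 0.03), joined them, as did the BMP antagonist Fstl1 (0.20, SE 0.04), which had not passed against Shh-negative mesenchyme (0.09, adjusted p = 0.201). The netrin receptor Unc5c (1.65, SE 0.16), Olfm1 (1.65, SE 0.08) and the adaptor Dok4 (1.59, SE 0.10) were also among the genes with the largest differences.

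Lower than in distal mesenchyme were the Notch ligand Jag1 (-1.43, SE 0.15, adjusted p = 0.000131), the zinc finger factor Sall3 (-1.35, SE 0.06), the ephrin receptor Epha4 (-1.61, SE 0.09), Rspo3 (-1.36, SE 0.10), Wnt5a (-0.72, SE 0.04), and the FGF targets Spry4 (-0.27, SE 0.06) and Dusp6 (-0.41, SE 0.05). Among the genes whose sign was opposite to that against Shh-negative mesenchyme were Spry4, Dusp6, Sall3, Wnt5a, Lmo2 (-0.54, SE 0.12), Hey1 (-0.50, SE 0.12), Sall1 (-0.41, SE 0.05), Hoxd11 (-0.38, SE 0.06), Hoxd10 (-0.35, SE 0.04), Ets1 (0.35, SE 0.07) and Scube3. Hoxd11 and Hoxd10 lie in 1 cluster with Hoxd13, on which the distal cells were chosen. Gas1 (-1.15, SE 0.19), Boc (-0.80, SE 0.15), Grem1 (-2.13, SE 0.35) and Asb4 (-1.73, SE 0.28) were lower in both comparisons. A Jag1 UMI was found in 62.1% of distal cells, 25.8% of Shh cells and 13.4% of Shh-negative mesenchyme, pooled over genotypes, and in 20.5% of muscle progenitors. In Shh cells the share ran from 5.41% to 52.9% between libraries. The Jag1 difference of -1.43 also averages over genotypes, between which Jag1 differed in Shh cells, as given below.

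Cells were next grouped by their Shh UMIs (0, 1, 2 to 3, 4 to 7, and 8 or more), and CPM was averaged over the 7 to 9 libraries with enough cells in each bin. The libraries differed between bins, so a step between bins is not a change within libraries alone. Wt replicate 3, with 1, 4 and 12 cells in the 3 upper bins, entered only the highest of these. E1C5Δ/Δ replicate 2, with 18, 12 and 7 cells, was missing from the highest. No test was made, since the bins were cut on Shh and cells with more Shh UMIs were deeper (median 37409, 38147.5 and 53754 UMIs in the 3 upper bins). Cck went from 0.142 ± 0.0829 (SD, n = 9) with no Shh UMI to 3.08 ± 3.63 (n = 8) with 1, 12.0 ± 5.89 (n = 7) with 2 to 3, 33.7 ± 11 (n = 7) with 4 to 7 and 61.7 ± 36.6 (n = 7) with 8 or more. Bmp4 went from 63.7 ± 8.02 CPM to 147 ± 45.1, 229 ± 24.5, 303 ± 74.6 and 375 ± 16.4 CPM. Hoxa13 was at 4.93, 9.42, 26.0, 35.1 and 62.8 CPM over the same bins and Hoxd13 at 24.0, 47.3, 83.0, 92.8 and 120 CPM. These 4 climbed at every step, as did Hand2, Ptch1, Prdm1 and Tfap2c.

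Tbx2 and Gli1 did not climb further in the upper bins, and other genes fell. Tbx2 was at 21 CPM with no Shh UMI, 51.3 CPM with 1 and 60.7, 61.3 and 61.3 CPM in the upper bins, and Gli1 was at 9.11, 11.2, 16.0, 16.3 and 14.1 CPM. Gas1 fell from 270 ± 41.5 CPM (n = 9) through 176, 101 and 89.9 CPM to 44.9 ± 20.4 CPM (n = 7), Asb4 from 417 to 84.6 CPM and Grem1 from 21.2 to 3.23 CPM. The cells with 1 Shh UMI lay between the Shh-negative cells and the Shh cells for each of these genes.

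**Figure D3:**
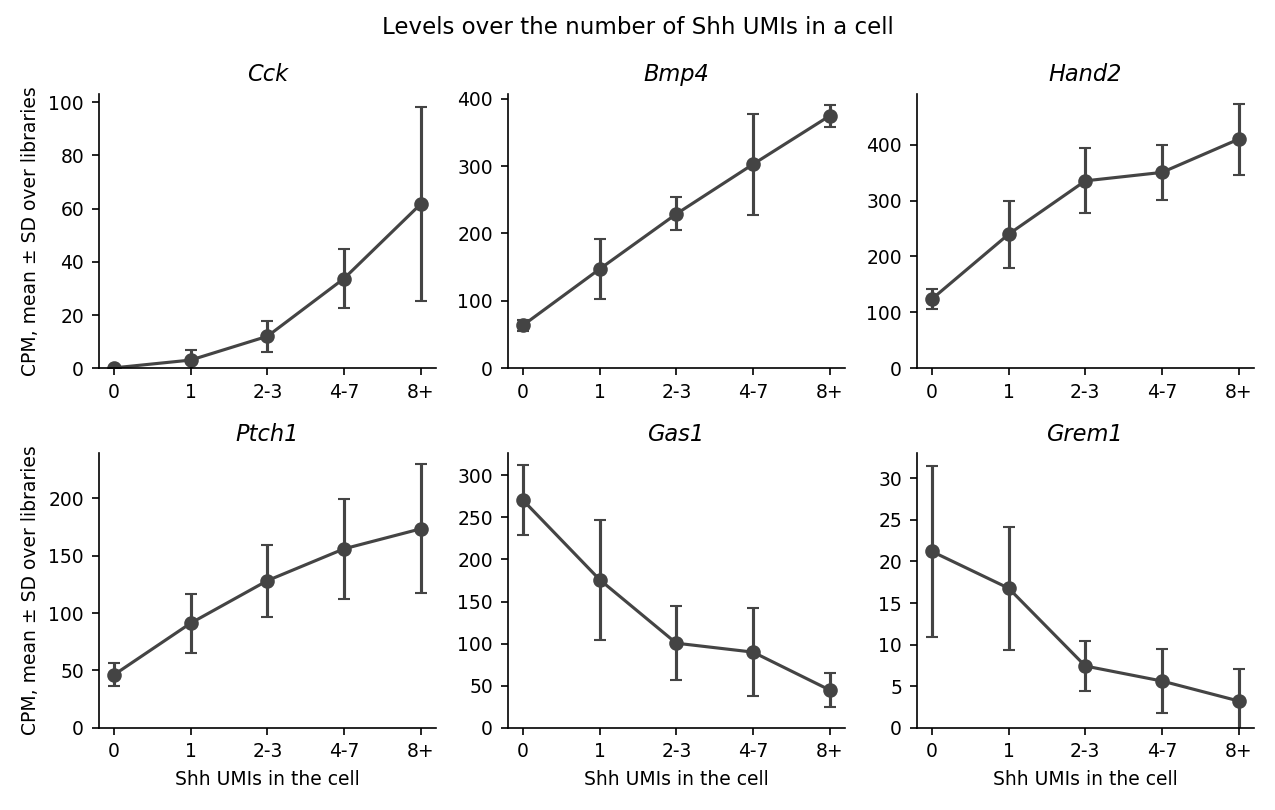
Mean CPM ± SD over libraries of 6 genes (vertical axes, linear, starting at 0) in mesenchymal cells grouped by their Shh UMIs (horizontal axes). Cck, Bmp4, Hand2 and Ptch1 climb to 61.7, 375, 410 and 173 CPM in cells with 8 or more Shh UMIs, and Gas1 and Grem1 fall to 44.9 and 3.23 CPM.

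The genotypes were then compared within Shh cells, to ask what the tetradactyl Grem1 mutations change in the polarizing region. Of 10191 genes tested, 23 (0.226%) passed an adjusted p of 0.05 for both mutants against Wt, 10 higher (0.0981%) and 13 lower (0.128%), and 1013 had an unadjusted p under 0.05. With 3 Wt, 2 E1C8Δ/Δ and 3 E1C5Δ/Δ libraries the number moved with single libraries and was 5 without E1C8Δ/Δ replicate 2, 6 without E1C8Δ/Δ replicate 3, 11 without Wt replicate 2 and 13 without E1C5Δ/Δ replicate 2. With sex as a covariate 3 genes passed, in male libraries alone 4, and with doublets removed 13.

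Msx2, a transcription factor that BMP signals induce (chromosome 13, 53466884 to 53473074), was at 37.0, 41.2 and 28.7 CPM in the Shh cells of Wt, 96.0 and 91.0 CPM in E1C8Δ/Δ replicates 2 and 3, and 79.6, 80.7 and 84.4 CPM in E1C5Δ/Δ. The 8 cells of E1C8Δ/Δ replicate 1, outside the test, gave 177 CPM. Every mutant library lay above every Wt library, as was found for 1.95% of all genes tested, by a log2 difference of 1.26 (SE 0.13, adjusted p = 0.000454), and Msx2 passed in each mutant on its own (1.34 in E1C8Δ/Δ, adjusted p = 0.000941, and 1.18 in E1C5Δ/Δ, adjusted p = 0.00181). It kept an adjusted p under 0.05 with sex as a covariate (0.00674) but not in the 5 fitted male libraries, with the same difference of 1.26 (adjusted p = 0.0591), where neither mutant passed on its own (0.0859 and 0.255). In Shh-negative mesenchyme Msx2 was 25.1, 29.9 and 37.4 CPM in Wt, 60.2, 60.5 and 46.4 CPM in E1C8Δ/Δ and 24.7, 34.4 and 25.3 CPM in E1C5Δ/Δ.

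Id3, an inhibitor of bHLH factors and another direct BMP target (chromosome 4, 136143497 to 136145755), was at 281, 249 and 220 CPM in Wt, 589 and 465 CPM in E1C8Δ/Δ replicates 2 and 3 (701 CPM in replicate 1), and 378, 477 and 382 CPM in E1C5Δ/Δ. Again the groups did not overlap, and the log2 difference was 0.90 (SE 0.13, adjusted p = 0.00638). The Id3 call was lost with sex as a covariate (adjusted p = 0.0639), in male libraries (0.0679) and without E1C8Δ/Δ replicate 2 (0.0634). Of 10 BMP targets tested, 2 passed, both higher (Msx2 and Id3), and all 10 had differences above 0, with a median of 0.58 against -0.01 for all genes. The others include Id2 (0.71, SE 0.15, adjusted p = 0.0679), Msx1 (0.51, adjusted p = 0.135), Bambi (0.50, adjusted p = 0.191) and Id1 (0.50, SE 0.14, adjusted p = 0.23).

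The BMP ligands and antagonists in Shh cells gave no called difference between genotypes. Bmp4 stood at -0.11 (adjusted p = 0.83) and Grem1 at -0.24 (adjusted p = 0.902), and 0 of 4 ligands and 0 of 5 antagonists passed by edgeR. The same holds for the Hedgehog pathway, with 0 of 6 receptors, 0 of 13 transduction genes and 0 of 5 targets past the threshold (medians 0.06, -0.09 and -0.10). Of all genes tested only 0.226% passed, so such short lists could be without a call in any case. Ptch1 was at -0.09 (adjusted p = 0.941), Gli1 at -0.02 (adjusted p = 0.985) and Prdm1 at -0.02. Cck differed by -0.89 (adjusted p = 0.619). A difference that does not pass with 8 libraries is not shown to be absent. Summed over all mesenchymal cells, the Hedgehog target Hhip was lower in both mutants against Wt (log2 difference -1.14, adjusted p = 0.00912). Gli1 (-0.40, adjusted p = 0.147) and Ptch1 (-0.35, adjusted p = 0.222) did not pass there. Few genes passed that test with sex as a covariate, as given above.

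Also higher in the mutants were Rspo4, a potentiator of WNT signals, at 16.2, 12.9 and 12.0 CPM in Wt, 21.6 and 28.2 CPM in E1C8Δ/Δ replicates 2 and 3 and 25, 41.7 and 50.7 CPM in E1C5Δ/Δ (log2 difference 1.18, SE 0.21, adjusted p = 0.0306). Rspo4 was at 13.4 CPM in E1C8Δ/Δ replicate 1, within the Wt range. Crabp1 was at 372, 362 and 390 CPM in Wt and between 496 and 723 CPM in the 6 mutants (log2 difference 0.68, SE 0.12, adjusted p = 0.0306), and Snai1, a zinc finger repressor, differed by 0.76 (SE 0.14, adjusted p = 0.0407). Each of these 3 calls was lost with sex as a covariate (adjusted p 0.133 for Rspo4, 0.262 for Crabp1, 0.325 for Snai1), in male libraries (0.0679, 0.373 and 0.507), without Wt replicate 2 (0.143, 0.113 and 0.23) and without E1C8Δ/Δ replicates 2 (0.0688, 0.0688 and 0.239) or 3 (0.172, 0.172 and 0.176), and with doublets removed (0.0852, 0.0514 and 0.0865). On its own, E1C5Δ/Δ passed for Rspo4 (1.53, adjusted p = 0.0048) and Crabp1 (0.87, adjusted p = 0.00691), E1C8Δ/Δ did not (0.82, adjusted p = 0.145 and 0.50, adjusted p = 0.121), and Snai1 passed in neither (adjusted p = 0.0559 in E1C8Δ/Δ and 0.0862 in E1C5Δ/Δ).

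Among the 13 lower genes Jag1 (chromosome 2, 137081456 to 137116644) stood out in size. It was at 21.8, 18.6 and 20.7 CPM in the Shh cells of Wt, 5.31 and 2.50 CPM in E1C8Δ/Δ replicates 2 and 3, and 4.00, 0.887 and 4.60 CPM in E1C5Δ/Δ. The few cells of E1C8Δ/Δ replicate 1 gave 13.4 CPM, still below Wt. Jag1 fell by 2.39 on the log2 scale (SE 0.26, adjusted p = 0.000501), with -2.36 in E1C8Δ/Δ (adjusted p = 0.0089) and -2.42 in E1C5Δ/Δ (adjusted p = 0.00181). As its level in the mutants was low, the size depends on few counts. For both mutants Jag1 passed under every alternative tried, including sex as a covariate (-3.51, adjusted p = 0.000505). In male libraries alone the difference was -3.70. For E1C8Δ/Δ on its own the Jag1 call was lost without replicate 2 (adjusted p = 0.0897) or 3 (0.179). In Shh-negative mesenchyme Jag1 was 8.77, 7.73 and 11.5 CPM in Wt, 8.01, 5.13 and 4.46 CPM in E1C8Δ/Δ and 3.48, 3.69 and 5.13 CPM in E1C5Δ/Δ. All 6 Notch genes tested had differences below 0 (median -0.55), but Jag1 was the 1 that passed. Hey1, the Notch target, did not overlap between the fitted Wt and mutant libraries yet missed the threshold (-0.64, SE 0.15, adjusted p = 0.111), where 2.31% of all genes tested lay below Wt without overlap.

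Hoxd13, the most 5′ gene of its cluster (chromosome 2, 74668310 to 74671599), was at 157, 130 and 144 CPM in Wt, 74.0 and 80.2 CPM in E1C8Δ/Δ replicates 2 and 3 (94.1 CPM in replicate 1) and 85.3, 76.7 and 73.1 CPM in E1C5Δ/Δ. All mutant libraries were thus below all Wt libraries (log2 difference -0.88, SE 0.12, adjusted p = 0.00337), in E1C8Δ/Δ by -0.91 (adjusted p = 0.0134) and in E1C5Δ/Δ by -0.85 (adjusted p = 0.00932). With sex as a covariate the adjusted p of Hoxd13 was 0.136, in male libraries 0.273 and without E1C8Δ/Δ replicate 2 0.0634. It was the 1 HoxD gene of 7 that passed. Hoxa13 was at -0.82 (adjusted p = 0.0741) and Tfap2b at -1.54 (adjusted p = 0.133), with Tfap2b at 58.3, 71.4 and 105 CPM in Wt and 12.4 to 42.1 CPM in the mutants.

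Mnx1 (chromosome 5, 29473034 to 29478470), a homeobox gene on the far side of Lmbr1 from Shh, was the member of the Shh neighborhood that passed. It was at 6.0, 7.29 and 10.69 CPM in Wt, 0.664 and 2.50 CPM in E1C8Δ/Δ replicates 2 and 3, and 0, 0.444 and 0.384 CPM in E1C5Δ/Δ, and no UMI was seen in E1C8Δ/Δ replicate 1. The fitted log2 difference of Mnx1 was -3.34 (SE 0.44, adjusted p = 0.00337), a size that depends on the few counts in the mutants. Mnx1 passed in E1C5Δ/Δ on its own (adjusted p = 0.00181) and not in E1C8Δ/Δ (adjusted p = 0.0787). The call was lost with sex as a covariate (adjusted p = 0.343) and in male libraries (0.342).

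Further genes lower in the mutants were Cbfa2t3, a transcriptional co-repressor (-1.12, SE 0.18, adjusted p = 0.0181), the microtubule-associated Map1b (-0.89, SE 0.14, adjusted p = 0.0161) and Dock6 (-0.87, SE 0.16, adjusted p = 0.0345). Cbfa2t3 was at 52.2, 35.6 and 40.8 CPM in Wt and 12.9 to 29.1 CPM in the mutants. Cbfa2t3 was no longer called without E1C8Δ/Δ replicate 2 (adjusted p = 0.134), Map1b without E1C8Δ/Δ replicate 3 (0.153), and Dock6 without either (0.175 and 0.176). In male libraries none of Cbfa2t3 (0.342), Map1b (0.0679) and Dock6 (0.279) passed, and with sex as a covariate Cbfa2t3 (0.369) and Dock6 (0.133) did not. These 2 were also lost with doublets removed (0.0507 and 0.0881). On their own, E1C8Δ/Δ passed for all 3 (adjusted p = 0.0371 for Cbfa2t3, 0.00677 for Map1b and 0.0454 for Dock6) and E1C5Δ/Δ for none (0.0565, 0.347 and 0.141). The study's lists of peripheral and distal-autopodial progenitor genes were chosen on these samples and are not independent evidence. Of the 4 peripheral genes Rspo4 and Msx2 were higher (median 1.02), and of the 4 distal genes Hoxd13 and Jag1 were lower (median -1.21).

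Lists that gave no call in Shh cells by edgeR were the FGF response (0 of 9, median -0.20), anterior genes (0 of 10), proximal genes (0 of 8, all 8 above 0, median 0.43), HoxA (0 of 9), S phase (0 of 37), G2/M (0 of 52), p53 and cell death (0 of 15) and dissociation stress (0 of 12). Of 8 posterior and 9 distal genes, Hoxd13 alone passed in each, and the median of the distal list was -0.52. Red cell markers, which summed to 20104 CPM in the Shh cells of Wt replicate 3, gave no call among 5 genes, with a median of -2.58.

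**Figure D4:**
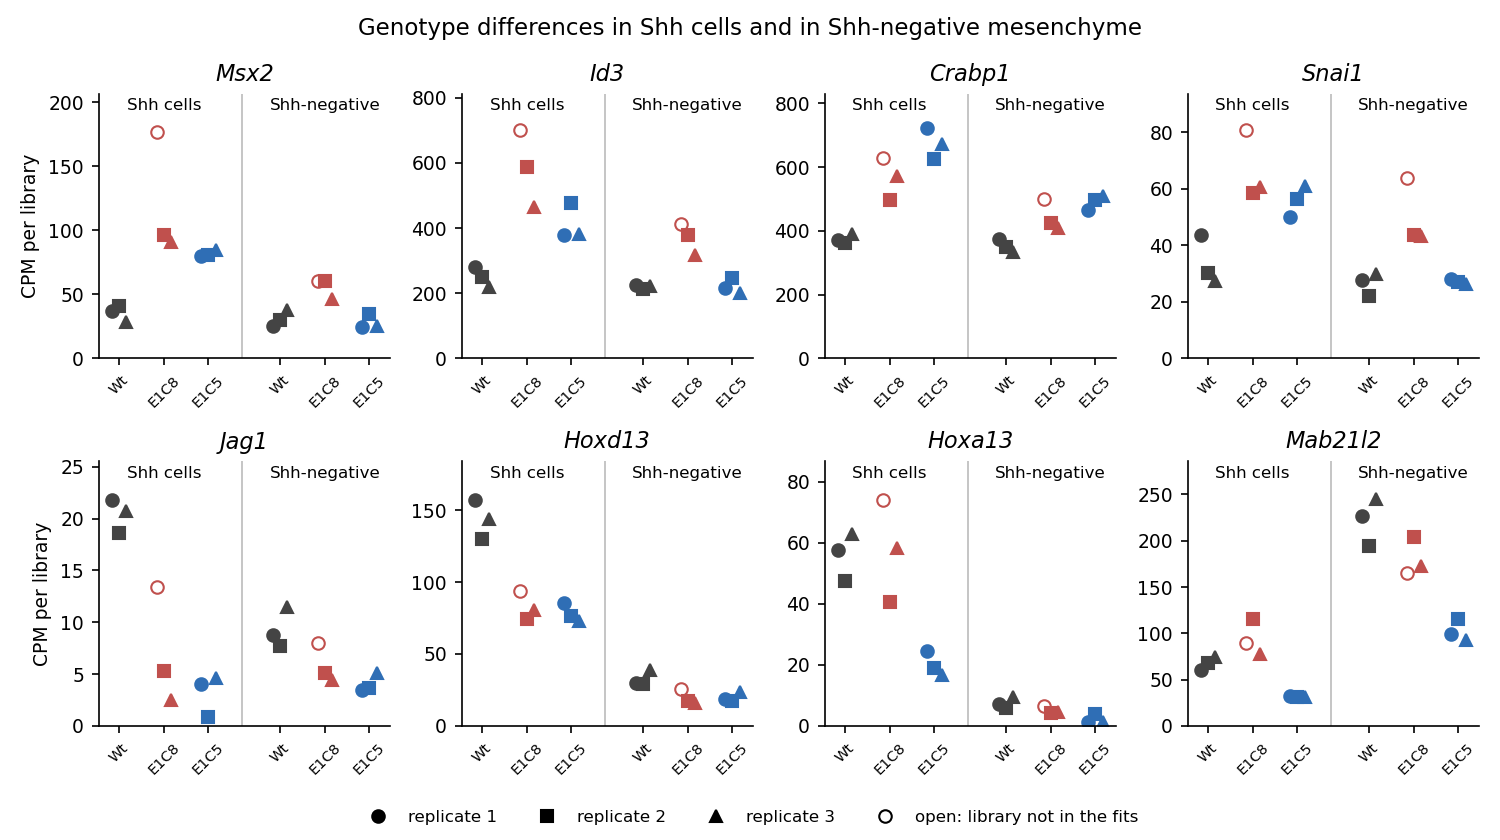
CPM per library of 8 genes in Shh cells (left of each panel) and Shh-negative mesenchyme (right), by genotype (Wt, E1C8, E1C5), with a symbol for each replicate. The open circle is E1C8Δ/Δ replicate 1, which was not fitted. In Shh cells Msx2 and Id3 are higher in all mutant libraries than in Wt, where they are at most 41.2 and 281 CPM, and Jag1 and Hoxd13 are lower, at most 13.4 and 94.1 CPM.

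**Figure D5:**
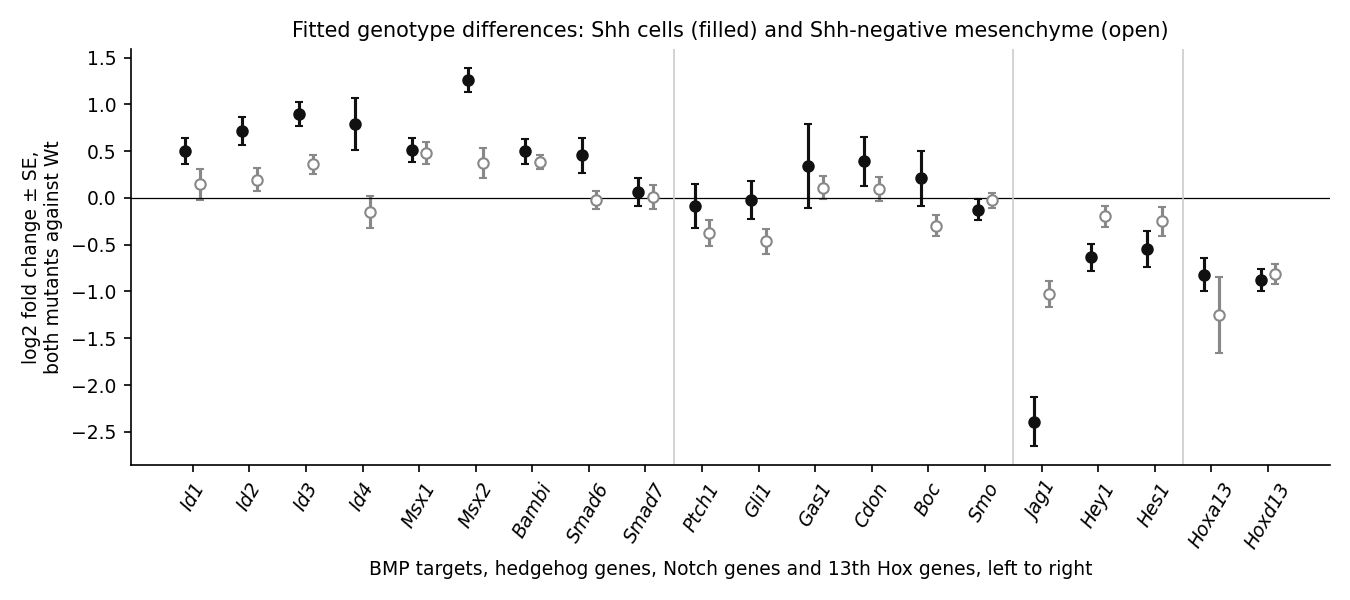
Fitted log2 difference ± SE of both mutants against Wt (vertical axis) for BMP targets, Hedgehog genes, Notch genes and the 13th Hox genes, in Shh cells (filled) and Shh-negative mesenchyme (open). In Shh cells all BMP targets lie above 0, with Msx2 at 1.26 and Id3 at 0.90, Ptch1 and Gli1 are at -0.09 and -0.02, and Jag1 is at -2.39.

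Each mutant was also set against Wt and against the other, with the Wt libraries shared between the first 2 comparisons. E1C8Δ/Δ Shh cells had 59 called genes (0.579%, 28 higher at 0.275% and 31 lower at 0.304%) and E1C5Δ/Δ 24 (0.236%, 9 higher at 0.0883% and 15 lower at 0.147%). E1C8Δ/Δ rests on 2 libraries, and its count was 7 without replicate 2, 3 without replicate 3, 27 without Wt replicate 2 and 154 without Wt replicate 3. The E1C5Δ/Δ count was 8 without its replicate 2, 12 without Wt replicate 2 and 37 without Wt replicate 1. Among the genes called in E1C8Δ/Δ but not at that threshold in both mutants together were the BMP targets Id2 (0.84, SE 0.18, adjusted p = 0.0461) and Bambi (0.77, adjusted p = 0.0429), the retinoic acid binding protein gene Crabp2 (0.93, SE 0.17, adjusted p = 0.0182), the WNT ligand gene Wnt11 (2.90, SE 0.58, adjusted p = 0.0371) and the immediate-early gene Ier2 (0.65, SE 0.14, adjusted p = 0.0451). Ier2 was the 1 called gene of the dissociation list, whose members summed to 806 to 1003 CPM in the Shh cells of Wt, 880 to 1332 CPM in E1C8Δ/Δ and 688 to 808 CPM in E1C5Δ/Δ, and its part in the other differences was not tested. In E1C5Δ/Δ such genes included Hoxa13 (-1.48, adjusted p = 0.0048), the regulator Mab21l2 (-1.08, adjusted p = 0.0106), Dok4 (1.24, SE 0.22, adjusted p = 0.0252) and Alx1, an anterior homeobox gene (1.51, SE 0.26, adjusted p = 0.0202). With sex as a covariate none of Id2 (adjusted p = 0.183), Bambi (0.128), Hoxa13 (0.198), Mab21l2 (0.0817), Dok4 and Alx1 (both 0.0922) passed, and in male libraries Dok4 alone of these did (0.0454), the others lying at 0.637 for Id2, 0.51 for Bambi, 0.28 for Hoxa13, 0.684 for Mab21l2 and 0.287 for Alx1. Crabp2, Wnt11 and Ier2 did not pass with sex as a covariate (0.0907, 0.194 and 0.194) or in male libraries (0.506, 0.665 and 0.641). With doublets removed Id2 (0.13), Bambi (0.051), Ier2 (0.068) and Mab21l2 in E1C5Δ/Δ (0.278) did not pass. Id2, Bambi, Crabp2, Wnt11 and Ier2 were also lost without either fitted E1C8Δ/Δ replicate, and Mab21l2, Dok4 and Alx1 without E1C5Δ/Δ replicate 2 or 3.

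Between the mutants 41 of 10191 genes differed (0.402%), 23 higher (0.226%) and 18 lower (0.177%) in E1C8Δ/Δ, a count of 5 without either fitted E1C8Δ/Δ replicate, 9 without E1C5Δ/Δ replicate 2, 101 without Wt replicate 1, 127 without Wt replicate 3 and 1 in male libraries, which set 1 library of each mutant against the other. Hoxa13 was at 57.6, 47.7 and 62.8 CPM in Wt, 73.9, 40.5 and 58.5 CPM in E1C8Δ/Δ and 24.6, 19.1 and 16.6 CPM in E1C5Δ/Δ, so that E1C8Δ/Δ overlapped Wt and E1C5Δ/Δ lay below both (E1C8Δ/Δ minus E1C5Δ/Δ 1.31, SE 0.23, adjusted p = 0.0211). Mab21l2 was at 60.4, 68.0 and 74.8 CPM in Wt, 89.6, 116 and 77.4 CPM in E1C8Δ/Δ and 32.6, 31.1 and 30.8 CPM in E1C5Δ/Δ, so that E1C8Δ/Δ lay above Wt and E1C5Δ/Δ below it (E1C8Δ/Δ minus E1C5Δ/Δ 1.59, SE 0.18, adjusted p = 0.00234). The Mab21l2 call between the mutants was lost without E1C8Δ/Δ replicate 2 (adjusted p = 0.0554), and that of Hoxa13 without E1C8Δ/Δ replicate 2 (0.0554) or 3 (0.316) and without E1C5Δ/Δ replicate 2 (0.0865) or 3 (0.0614). In male libraries neither Mab21l2 (0.646) nor Hoxa13 (0.465) passed.

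Snhg17, a small nucleolar RNA host gene, was higher in E1C8Δ/Δ than in the other 2 genotypes. It was at 22.7, 24.8 and 24.1 CPM in Wt, 96.3, 51.5 and 72.0 CPM in E1C8Δ/Δ and 23.3, 14.6 and 25.2 CPM in E1C5Δ/Δ Shh cells (E1C8Δ/Δ minus E1C5Δ/Δ 1.47, SE 0.21, adjusted p = 0.00533). In Shh-negative mesenchyme Snhg17 was 43.9 to 55.0 CPM in E1C8Δ/Δ and 17.0 to 23.6 CPM in the other libraries, so the difference was not limited to Shh cells. The Snhg17 calls were lost without E1C8Δ/Δ replicate 3, and that between the mutants in male libraries (adjusted p = 0.0728). Shh cells of E1C8Δ/Δ replicates 2 and 3 were also shallower than those of the other libraries. With all cells thinned to 10000 UMIs Snhg17 still differed between the mutants (1.28, adjusted p = 0.0405), while its difference between E1C8Δ/Δ and Wt, 1.37 (adjusted p = 0.00693) without thinning, became 1.0 (adjusted p = 0.0976).

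Whether a genotype difference was greater in Shh cells than in the rest of the mesenchyme was tested as an interaction within libraries. Of 13807 genes, 14 passed (0.101%), 8 with a difference that was more positive (0.0579%) and 6 more negative (0.0435%) in Shh cells, and 1086 had an unadjusted p under 0.05. The count was 8 without either fitted E1C8Δ/Δ replicate, 23 without Wt replicate 1, 32 without E1C5Δ/Δ replicate 1 and 110 without Wt replicate 3, which has 17 Shh cells.

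Of the 8 genes, 3 were Id genes. Id3 differed between genotypes by 0.53 more in Shh cells (SE 0.07, adjusted p = 1.6e-05), Id2 by 0.51 (SE 0.07, adjusted p = 1.66e-05) and Id1 by 0.37 (SE 0.07, adjusted p = 0.0216). Id2 was at 192, 122 and 139 CPM in the Shh cells of Wt, 305 and 242 CPM in E1C8Δ/Δ replicates 2 and 3 and 174, 220 and 273 CPM in E1C5Δ/Δ. In Shh-negative mesenchyme Id2 was at 233, 159 and 192 CPM in Wt, 290 and 236 CPM in E1C8Δ/Δ replicates 2 and 3 and 152, 177 and 215 CPM in E1C5Δ/Δ. In Wt, Id2 was lower in Shh cells than around them in all 3 libraries, and in the fitted mutants it was higher in all 5. Id3 and Id2 passed under every alternative tried, and Id1 was lost in several, such as without Wt replicate 2 (adjusted p = 0.299) and in male libraries (0.374). All 11 BMP targets tested had interactions above 0 (median 0.47, against -0.02 for all genes). Msx2 was at 0.80 but did not pass (adjusted p = 0.255).

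The carrier gene Scube1, which promotes Hedgehog release, and Prrx2, a mesenchymal homeobox gene, were also more positive in Shh cells (0.45, SE 0.08, adjusted p = 0.00437 and 0.43, SE 0.07, adjusted p = 0.000406). The Scube1 call was lost after thinning (adjusted p = 0.176) and that of Prrx2 in male libraries (0.0744). Scube1 was at 113, 83.2 and 82.2 CPM in Wt Shh cells and 116 to 144 CPM in those of the mutants, and 84.1 to 113 CPM in Wt and 87.0 to 107 CPM in the mutants outside them. On the negative side Jag1 differed by -1.48 more in Shh cells (SE 0.22, adjusted p = 0.000271), a call lost only after thinning to 10000 UMIs (adjusted p = 0.0637), and Tfap2a, named after its values were seen, by -0.88 (adjusted p = 0.0099, and 0.206 without Wt replicate 2). Tfap2a was at 17.7, 18.5 and 22.1 CPM in Wt, 20.2, 12.9 and 12.1 CPM in E1C8Δ/Δ and 6.0, 7.54 and 9.13 CPM in E1C5Δ/Δ Shh cells. Hoxd13, lower in the mutant Shh cells, had an interaction of -0.14 (adjusted p = 0.869), so a difference particular to Shh cells was not shown for it.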

How the data were processed

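Per the labels and the methods of the study, the authors aligned 10x Genomics 3′ v3.1 reads to mm10 and counted UMIs per gene and barcode with Cell Ranger 6.0.1 (Seurat 4.3.0.1 is also named), and deposited the unnormalized counts used here. The Shh cells, comparison classes and gene lists were chosen with earlier results of these data known. Counts were summed per library and class. Genes with low counts (filterByExpr) and on X or Y were left out, and the sums were tested in R 4.3.3 with edgeR 4.0.16 (TMM, robust quasi-likelihood test, Benjamini-Hochberg adjustment at 0.05), with the library as a block for comparisons within libraries and the mean of the mutant groups for both mutants against Wt. Classes with fewer than 10 cells in a library were not fitted, which left out E1C8Δ/Δ replicate 1. Doublets marked by a simulated-doublet score were removed only in an alternative. Marked Shh cells were 25 of 141, 28 of 149 and 2 of 17 in Wt replicates 1 to 3. They were 0 of 8, 14 of 97 and 22 of 89 in E1C8Δ/Δ, and 2 of 53, 4 of 37 and 54 of 210 in E1C5Δ/Δ. Beyond list genes, up to 10 genes per test and direction were named, by fold, among called genes of at least 20 CPM that were separated in all libraries. Gene positions are from GENCODE M21. The models were tested on simulated data for each comparison. For both mutants against Wt 190 of 200 changed genes were recovered, with 14 false calls among 10191 genes. For the interaction 180 of 200 were, with 22 false calls among 13807 genes. Each changed gene was given a log2 difference of 1, and the genes lowest in mean CPM were not changed. Recovery of smaller differences and of such low genes was therefore not measured. Each library is 1 embryo with its own dissociation and capture, so p-values between genotypes measure the spread between libraries, where these cannot be told apart. For comparisons within libraries and the interaction they measure how the difference between classes varies over libraries. Alternatives included DESeq2 1.42.0, other filters, thinning, sex and leaving out libraries. Values of a few genes are not reported here.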

Additional observations from a re-analysis of the deposited data

Results flagged for a closer look

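The differences between the 2 mutants in Shh cells and between Shh cells and the rest of the mesenchyme were taken up because the difference itself passed a test. Log2 differences of E1C8Δ/Δ minus E1C5Δ/Δ in Shh cells were positive for Gm266 (1.96), Gm11361 (1.88), Mab21l2 (1.59), Snhg17 (1.47), Snhg15 (1.42), Snhg16 (1.33), Hoxa13 (1.31), Snhg12 (1.21), Tmem222 (1.19) and 1810026B05Rik (1.15). They were negative for Dst (-1.23), Mdc1 (-1.07), Lrpprc (-0.99), Sptan1 (-0.91), Daam2 (-0.89), Caprin1 (-0.87), Ddx21 (-0.84), Mybbp1a (-0.80), Hif1a (-0.80) and Cse1l (-0.72). In male libraries alone, which hold 1 library of each mutant, 1 gene passed this comparison.

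The genotype difference of both mutants against Wt was more positive in Shh cells than in Shh-negative mesenchyme for Zeb2 (1.02), Id3 (0.53), Id2 (0.51), Ednra (0.50), Mfap4 (0.50), Scube1 (0.45), Prrx2 (0.43) and Id1 (0.37). It was more negative for Jag1 (-1.48), Tfap2a (-0.88), Slc7a1 (-0.82), Man2a1 (-0.60), Slc25a33 (-0.56) and Ddx21 (-0.42).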

How the results depend on the processing

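No recomputed result changed its direction where it passed the test in the main analysis or in the alternative. Changes of sign in results that passed in neither were not counted. The shares of Shh cells for each mutant on its own were not recomputed. Where a fitted E1C8Δ/Δ library or the female libraries were left out, a mutant group held 1 library, assumed to vary like the other groups. For Shh cells of both mutants against Wt (23 genes), DESeq2 called 55 genes, a filter of 10 UMIs 37, sex as a covariate 3, doublets removed 13, at least 3 Shh UMIs 12, and male libraries 4. For E1C8Δ/Δ against Wt (59) these gave 125 by DESeq2, 110 with the filter, 13 with sex, 31 without doublets and 7 in male libraries, with 154 at 20 or more and 161 at 5 or more Shh cells a library. For E1C5Δ/Δ against Wt (24) DESeq2 gave 40, the filter 38, sex 4, at least 3 Shh UMIs 15 and male libraries 7. Between the mutants (41) DESeq2 gave 88, the filter 63, the cell minimums 127 and 102, and male libraries 1. Against Shh-negative, Hand2 and distal mesenchyme (3748, 3469 and 881), thinning left 2104 of 10059, 1852 of 9679 and 349 of 7903 tested. Matching on UMIs left 2075 of 9783. For the interaction (14), the filter gave 113, 20 or more Shh cells 110 and male libraries 33. Leaving out 1 library at a time gave 5 to 34 genes for both mutants, 3 to 154 for E1C8Δ/Δ, 8 to 37 for E1C5Δ/Δ, 5 to 127 between mutants, 2943 to 4128, 2624 to 3748 and 687 to 925 against the 3 classes, and 8 to 110 for the interaction.

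The share of Shh cells differed by -1.33 points at 1 or more UMIs (exact permutation p = 0.0714) and -1.19 points at 3 or more UMIs (exact permutation p = 0.0357). It differed by -0.825 and -0.735 points after thinning with at least 1 and 2 UMIs (exact permutation p = 0.0476 and 0.0238), and by -1.17 to -0.729 points when 1 library was left out. Shh over all mesenchymal cells differed by -0.95 by DESeq2 (adjusted p = 0.00406) and by -1.15 to -0.84 when 1 library was left out. For single genes called between genotypes in Shh cells, 422 of 1364 alternatives lost the call (91 of 245 for both mutants, 129 of 456 for E1C8Δ/Δ, 85 of 283 for E1C5Δ/Δ and 117 of 380 between the mutants), and 51 of 192 did for the interaction. Against Shh-negative, Hand2 and distal mesenchyme, 45 of 1589, 1 of 405 and 27 of 709 did. The causes were not tested.

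Same-numbered libraries of different genotypes did not clearly deviate together (correlations -0.174 to 0.105), and the main fits did not take the numbers as pairs. This check is weak, since with 2 fitted E1C8Δ/Δ libraries their correlations are mirror images (0.0903 and -0.0903 with Wt replicate 1). The study describes repeated rounds of isolation and sequencing, each with a pair of buds per genotype. It does not say whether the replicate numbers mark these rounds. With the replicate number as a block, 23 genes were called for both mutants (5 higher and 18 lower, against 10 and 13 without it), 19 for E1C8Δ/Δ, 36 for E1C5Δ/Δ and 6 between the mutants, with 7 of the 13 named calls for both mutants lost, 11 of 24 for E1C8Δ/Δ, 3 of 15 for E1C5Δ/Δ and 16 of 20 between the mutants. Shh over all mesenchyme differed by -0.94 (adjusted p = 0.132), and the share by -0.957 points (exact permutation p = 0.148, smallest possible 0.037). The 8 to 210 Shh cells per library limit what can be detected for low genes.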
